A study of Homo sapiens with 11 samples.

Results

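Cells meet low oxygen mainly through the hypoxia-inducible factors, transcription factors made of an oxygen-labile alpha subunit and the stable partner ARNT. In the presence of oxygen the EGLN prolyl hydroxylases mark the alpha subunit, and the VHL ubiquitin ligase then removes it. When oxygen falls the alpha subunit accumulates, pairs with ARNT, binds the core sequence ACGTG or GCGTG and raises genes of glucose use, pH control, vessel growth and mitophagy. That control acts on the protein, so the mRNA levels given here do not measure how much factor was present or active.

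The genes described here are 10 of the 23609 gene symbols measured, named individually and matched by symbol: both main alpha subunits (HIF1A and EPAS1, the gene of HIF-2 alpha) and 8 genes known as their targets (VEGFA, CA9, NDRG1, ADM, EGLN3, BNIP3, ANKRD37 and KDM3A). Each stood at 1 locus in the files, and 9 of the 10 passed the filter for testing; ANKRD37 did not.

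They were followed in A549 cells, an established line from a human lung adenocarcinoma, after exposure to cigarette smoke condensate (CSC, the particulate part of smoke in a solvent) or to DMSO, the vehicle. There were 3 RNA-seq libraries of CSC for 2 weeks, 3 of DMSO for 2 weeks, 3 of CSC for 48 hours and 2 of DMSO for 48 hours (replicates 2 and 3). The labels write the CSC dose as 20 µM in both CSC groups, although molarity has no meaning for a mixture, and they name no genotype change and no oxygen condition. Whether the replicates came from separate cultures is not stated, so p-values here speak of the spread among these libraries alone, and that may be technical.

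Levels are FPKM, the authors' fragments per kilobase of transcript relative to mapped fragments, which allows levels of different genes to be set side by side. Changes are differences of log2(FPKM + 0.5) with their standard error (SE), CSC minus DMSO or 2 weeks minus 48 hours, and understate the change of weakly expressed genes. A gene was called when limma's test gave a Benjamini-Hochberg adjusted p under 0.05 over 12506 genes. Read depth is unknown; from the width of the deposited bounds, relative depth was 1.0 to 1.55 in 10 libraries and 2.81 in CSC 2 weeks replicate 2. All 5 epithelial markers were at 1 FPKM or more in every library, while 5 of 6 alveolar type II markers and 3 of 5 leukocyte markers, PTPRC and CD3E among them, were under 1 in every library. Of the other leukocyte markers, CD68 was above 1 in every library and LYZ in 1 library; the summed level of the 5 was 5.98 to 7.93 FPKM in CSC and 5.91 to 6.56 FPKM in DMSO at 2 weeks, and 4.47 to 6.07 FPKM in CSC and 4.53 to 6.11 FPKM in DMSO at 48 hours. CSC 48 hours replicate 3 stood apart: 10 integrated stress response genes had a median 1.41 log2 above their mean over 11 libraries there, against -0.31 and -0.18 in the other CSC 48 hours libraries and -0.23 and -0.31 in DMSO at 48 hours. As deposited, 376 genes were higher and 300 lower in CSC at 2 weeks, a split of 289 and 468 after median of ratios, 264 and 487 after common sum and 325 and 441 after quantile scaling. Scaling to a common sum moved the all-gene median at 2 weeks to -0.03 from 0.09, so the members' changes are best read against that median.

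Of the 8 members with an entry in the RefSeq promoter table (GRCh38.p14; 250 bases before to 50 after the start site), 3 held ACGTG on either strand, which 24.9% of 27305 genes in the table also did. Windows around these matches, with 25 bases on each side where the region allows, show the textbook recognition core in 3 of the targets. Capitals mark ACGTG or its reverse complement CACGT, and the palindrome CACGTG counts on both strands. CA9 lies at chr9:35673885-35673927 (plus strand), ANKRD37 at chr4:185396654-185396727 (plus strand) and BNIP3 at chr10:131982027-131982082 (minus strand).
CA9: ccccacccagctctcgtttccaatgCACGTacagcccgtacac
ANKRD37: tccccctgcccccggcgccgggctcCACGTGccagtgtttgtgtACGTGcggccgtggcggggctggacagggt
BNIP3: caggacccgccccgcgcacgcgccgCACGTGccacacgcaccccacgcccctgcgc
The CA9 match stands within the last bases before the start site.

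The other core, GCGTG (reverse complement CACGC), was found in 5 of the 8 members (HIF1A, EPAS1, KDM3A, BNIP3 and ADM), against 40.6% of genes; the same letters form the core of the site of AHR with ARNT. EGLN3 held neither motif in this window. The promoters of both alpha subunits are shown because these were the members whose mRNA fell, and each holds 1 GCGTG and no ACGTG in the 250 bases before its start. Capitals mark these matches in HIF1A at chr14:61695263-61695512 and EPAS1 at chr2:46297157-46297406, both on the plus strand.
HIF1A: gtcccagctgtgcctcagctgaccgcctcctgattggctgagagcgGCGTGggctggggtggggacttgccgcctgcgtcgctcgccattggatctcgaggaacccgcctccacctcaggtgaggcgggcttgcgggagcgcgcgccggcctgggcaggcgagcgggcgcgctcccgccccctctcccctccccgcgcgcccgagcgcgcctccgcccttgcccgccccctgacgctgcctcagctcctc
EPAS1: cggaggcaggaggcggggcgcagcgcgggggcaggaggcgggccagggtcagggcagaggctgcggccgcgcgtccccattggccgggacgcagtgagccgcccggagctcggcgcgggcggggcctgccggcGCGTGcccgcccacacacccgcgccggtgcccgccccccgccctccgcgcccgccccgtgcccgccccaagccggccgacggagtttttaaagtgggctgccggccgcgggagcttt
A match is a description of these letters and not a measured binding site.

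After 2 weeks of CSC, the mRNAs of both alpha subunits were lower than in DMSO, while no target among the 10 genes was called in either direction. EPAS1 fell by 0.89 on the log2 scale and HIF1A by 0.68. The 2 called genes of 9 tested compare with 2.40% of all genes called lower. The members' median change was -0.17, against 0.09 over all genes tested.

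EPAS1 (chr2:46524541-46613842, hg19) encodes the alpha subunit of HIF-2, prominent in endothelium and in alveolar type II cells. Its level was 19.8, 19.5 and 24.6 FPKM in CSC at 2 weeks, against 40.1, 40.3 and 38.6 FPKM in DMSO. Every CSC library was well below every DMSO library. The ratio of the group means was 0.54. The change was -0.89 (SE 0.12, 95% interval -1.14 to -0.64, adjusted p = 0.000975), and it was called in all 11 fits that left out 1 library.

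HIF1A (chr14:62162119-62214977, hg19) encodes the alpha subunit of HIF-1, the more widely expressed factor. It had 66.7, 61.7 and 64.2 FPKM in CSC at 2 weeks, against 108, 108 and 94.8 FPKM in DMSO. The groups were far apart and tight, with means of 64.2 ± 2.48 FPKM in CSC and 103 ± 7.37 FPKM in DMSO (SD, n = 3 each). The change was -0.68 (SE 0.13, 95% interval -0.96 to -0.40, adjusted p = 0.0115). Leaving out DMSO 2 weeks replicate 1 (adjusted p = 0.0554), DMSO 2 weeks replicate 2 (0.0567) or CSC 2 weeks replicate 3 (0.0538) ended the call, with changes of -0.65 to -0.74 over all 11 such fits. In bulk RNA, fewer cells with the transcript and less transcript per cell cannot be told apart. The summed level of the 5 epithelial markers was 2100 to 2770 FPKM in CSC and 3060 to 3550 FPKM in DMSO at 2 weeks. KRT8 and KRT18 made up most of that sum. EPCAM, CDH1, KRT8 and KRT18 had lower means in CSC, and KRT19 did not (29.6 FPKM in CSC, 27.4 FPKM in DMSO). None of the 5 was called as deposited, and 2 were called lower under each other scaling. The part of these markers in the changes above was not tested.

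HIF1A-AS2, an antisense RNA listed separately at chr14:62213757-62215807 (hg19), overlaps the HIF1A locus by 1221 bases. The sources used here do not give the strand setting, so reads of the pair cannot be told apart in that overlap. It had 19.0, 23.9 and 24.5 FPKM in CSC at 2 weeks, against 38.7, 43.0 and 34.1 FPKM in DMSO, again without overlap. Its change was -0.77 with an adjusted p of 0.0121, lost in 3 of 11 fits that left out 1 library.

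**Figure D1:**
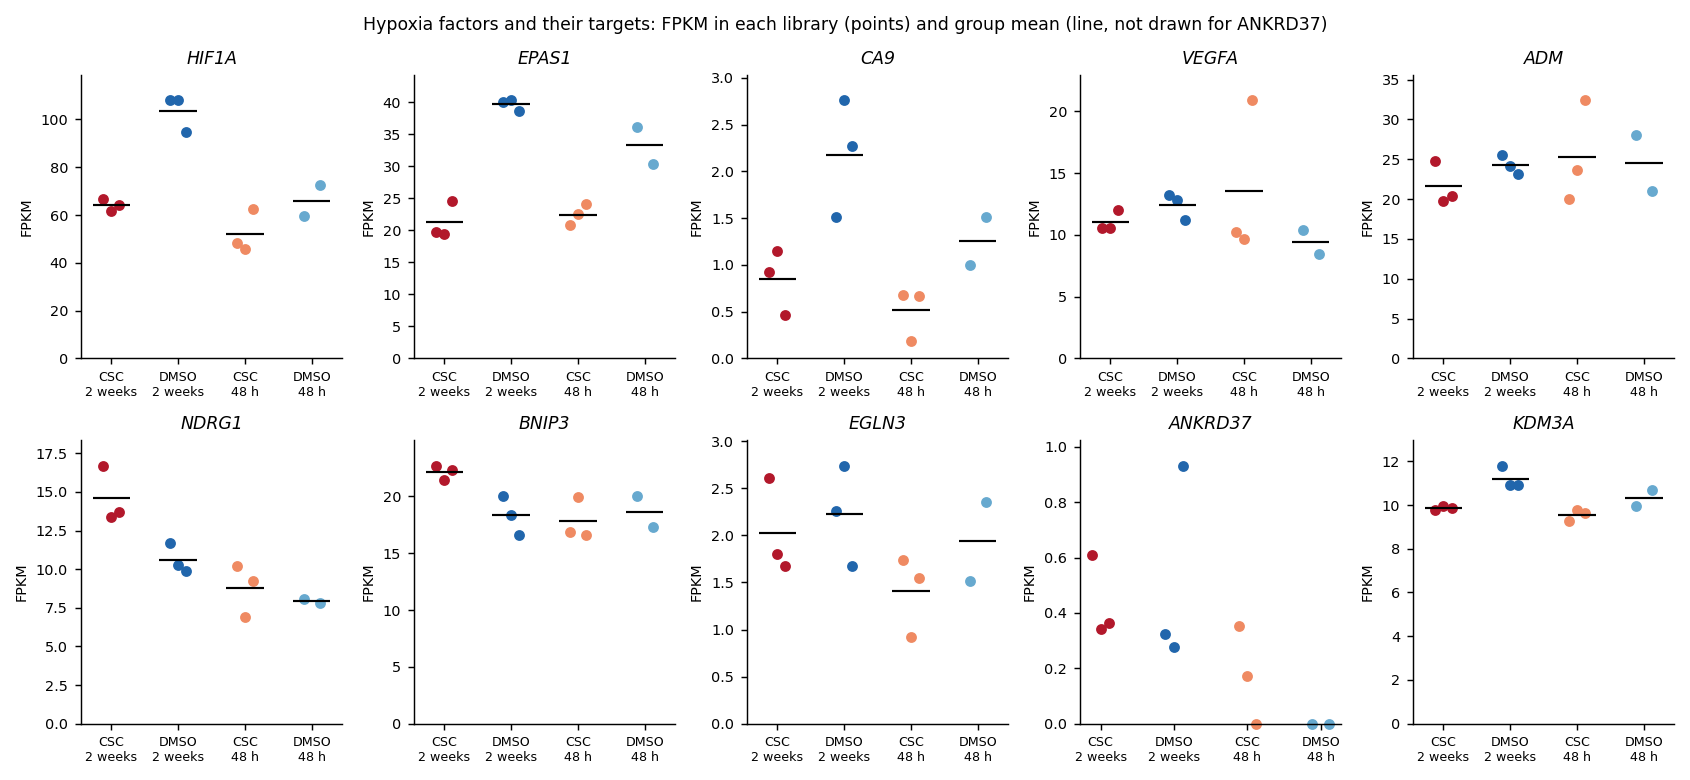
FPKM of the 10 genes in each of 11 libraries (points) with the group mean (line, omitted for ANKRD37); groups run CSC 2 weeks, DMSO 2 weeks, CSC 48 hours, DMSO 48 hours, and each vertical axis starts at 0. EPAS1 sits between 19.5 and 24.6 FPKM in CSC and between 38.6 and 40.3 FPKM in DMSO at 2 weeks, and VEGFA has 1 high CSC library at 48 hours, at 20.9 FPKM.

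The targets that meet acid and vessel growth included the member with the widest fitted change. CA9, a membrane carbonic anhydrase and a much-used hypoxia marker, had 0.928, 1.15 and 0.468 FPKM in CSC at 2 weeks, against 1.51, 2.76 and 2.27 FPKM in DMSO. All CSC libraries were lower, at levels near or under 1 FPKM where the deposited bounds are wide. The mean ratio was 0.39, and the fitted change of -1.0 (SE 0.28, 95% interval -1.60 to -0.40) had an adjusted p of 0.0558. It was called in 3 of 11 fits that left out 1 library: 0.0309 without CSC 48 hours replicate 2, 0.0418 without CSC 48 hours replicate 3 and 0.0325 without CSC 2 weeks replicate 2. It was also called under 6 other alternatives, such as common sum scaling (adjusted p = 0.0466) and quantile normalization (adjusted p = 0.0375), so this call turned on the setting.

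VEGFA, the main growth factor for endothelium, had 10.6, 10.6 and 12 FPKM in CSC at 2 weeks, against 13.2, 12.8 and 11.2 FPKM in DMSO. The groups overlapped, and the change of -0.15 had a 95% interval of -0.64 to 0.33 (adjusted p = 0.702). ADM, which encodes the vasodilator peptide adrenomedullin, had 24.8, 19.7 and 20.4 FPKM in CSC at 2 weeks, against 25.5, 24.2 and 23.1 FPKM in DMSO. These groups also overlapped, with a change of -0.17 (95% interval -0.53 to 0.20, adjusted p = 0.564).

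NDRG1 and BNIP3 lay on the other side. NDRG1, a cytoplasmic protein raised by hypoxia, metals and differentiation, had 16.7, 13.4 and 13.7 FPKM in CSC at 2 weeks, against 11.7, 10.3 and 9.85 FPKM in DMSO. BNIP3, a mitochondrial receptor for mitophagy, had 22.7, 21.4 and 22.3 FPKM in CSC, against 20.0, 18.4 and 16.6 FPKM in DMSO. In both genes every CSC library was above every DMSO library as deposited, by small margins. Summed FPKM at 2 weeks was 484209, 387870 and 413860 in CSC replicates 1, 2 and 3. In DMSO it was 401961, 394253 and 363985. Whether the separation of either gene held after scaling was not tested. The NDRG1 change was 0.44 (SE 0.14, 95% interval 0.13 to 0.74, adjusted p = 0.0869) and was called without CSC 48 hours replicate 2 (0.0465); the BNIP3 change was 0.27 (SE 0.11, 95% interval 0.03 to 0.51, adjusted p = 0.158). With the replicate number as a block, NDRG1 was called (adjusted p = 0.0378). Whether same-numbered libraries form pairs was not settled.

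KDM3A, a demethylase of histone H3 lysine 9, and EGLN3, the prolyl hydroxylase that hypoxia itself raises, completed the targets tested. KDM3A had 9.77, 9.96 and 9.86 FPKM in CSC at 2 weeks, against 11.8, 10.9 and 10.9 FPKM in DMSO. The CSC libraries were the lower ones, but the change was only -0.17 (SE 0.09, 95% interval -0.36 to 0.02, adjusted p = 0.24). EGLN3 had 2.61, 1.80 and 1.67 FPKM in CSC, against 2.26, 2.74 and 1.67 FPKM in DMSO. Its groups overlapped throughout (change -0.11, 95% interval -0.59 to 0.38, adjusted p = 0.797).

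ANKRD37, an ankyrin repeat protein of hypoxic cells, stayed under the filter of 1 FPKM in 2 libraries and was not tested. It was listed at 0.611, 0.341 and 0.364 FPKM in CSC and 0.324, 0.278 and 0.932 FPKM in DMSO at 2 weeks, with overlap. At 48 hours it was listed at 0.352, 0.172 and 0 FPKM in CSC and at 0 in both DMSO libraries. Its locus (chr4:186317840-186321390, hg19) overlaps that of UFSP2 by 697 bases.

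Counted by separation at 2 weeks, 4 of 9 tested members (HIF1A, EPAS1, CA9 and KDM3A) had every CSC library below every DMSO library, against 9.84% of all genes. A further 2 of 9 (NDRG1 and BNIP3) had every CSC library above, near the 20.3% of all genes that did. These counts are of levels as deposited and were not repeated after scaling.

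At 48 hours no member was called by limma in either direction, where 0.104% of all genes were called higher and 0.184% lower; 1062 genes had an unadjusted p under 0.05. The members' median change was -0.11, against 0 over all genes. EPAS1, CA9 and KDM3A, 3 of 9, had all CSC libraries below both DMSO libraries, as did 11.8% of all genes, and none had them above, against 11%.

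EPAS1 was the member with the smallest p at this time. It had 20.8, 22.5 and 24.1 FPKM in CSC at 48 hours, against 36.1 and 30.4 FPKM in DMSO. The CSC levels lay in the same range as those after 2 weeks of CSC. The change of -0.55 (SE 0.13, 95% interval -0.83 to -0.27) had an adjusted p of 0.114. No fit that left out 1 library called it, and with library weights it was called (-0.62, adjusted p = 0.0174). HIF1A had 48.3, 45.8 and 62.4 FPKM in CSC and 59.4 and 72.4 FPKM in DMSO, so its groups overlapped through CSC replicate 3 (change -0.34, SE 0.15, adjusted p = 0.55). Without that library the change was -0.48, with an adjusted p of 0.157.

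CA9 had 0.681, 0.189 and 0.671 FPKM in CSC at 48 hours, against 0.997 and 1.51 FPKM in DMSO. Both DMSO libraries were above all 3 CSC libraries, with a change of -0.82 (SE 0.31, 95% interval -1.49 to -0.15) and an adjusted p of 0.445. KDM3A had 9.27, 9.79 and 9.63 FPKM in CSC and 9.95 and 10.7 FPKM in DMSO (change -0.11, 95% interval -0.32 to 0.10, adjusted p = 0.862).

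VEGFA turned on 1 library. It had 10.2, 9.63 and 20.9 FPKM in CSC at 48 hours, against 10.4 and 8.49 FPKM in DMSO. The high value was in replicate 3, the library with raised stress response genes, and the other CSC libraries lay within the DMSO range. The change of 0.42 (SE 0.25, adjusted p = 0.728) dropped to 0.08 without it. ADM was also highest in that library, at 32.4 FPKM beside 20.0 and 23.6 FPKM in CSC replicates 1 and 2, against 28.1 and 21.0 FPKM in DMSO; its change was 0.03 with that library and -0.16 without it.

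The remaining targets overlapped between groups at 48 hours. NDRG1 had 10.2, 6.90 and 9.26 FPKM in CSC and 8.05 and 7.78 FPKM in DMSO (change 0.13, adjusted p = 0.914). BNIP3 had 16.9, 19.9 and 16.6 FPKM in CSC and 20.0 and 17.3 FPKM in DMSO (change -0.07, adjusted p = 0.953). EGLN3 had 1.74, 0.924 and 1.55 FPKM in CSC and 1.52 and 2.35 FPKM in DMSO (change -0.36, adjusted p = 0.795). The interval of NDRG1 (-0.22 to 0.47) leaves room for a small fall or a larger rise. That of EGLN3 (-0.90 to 0.18) leaves room for a sizeable fall.

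**Figure D2:**
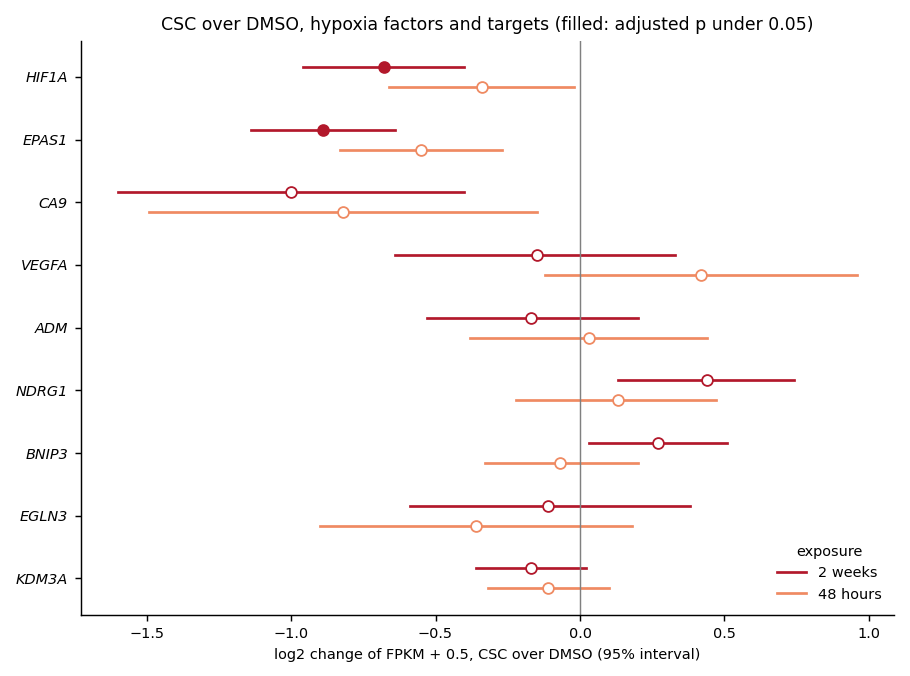
Change of log2(FPKM + 0.5), CSC over DMSO, with its 95% interval for the 9 tested members at 2 weeks (upper line of each pair) and 48 hours (lower line); filled points were called at an adjusted p under 0.05. The only filled points are HIF1A and EPAS1 at 2 weeks, at -0.68 and -0.89.

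Whether the CSC effect differed with exposure time was tested as the difference between the effects, 2 weeks minus 48 hours. No member was called, and over all genes 1 was called higher (0.00800%) and 4 lower (0.0320%), while 876 had an unadjusted p under 0.05. The difference was -0.34 for both HIF1A (adjusted p = 0.73) and EPAS1 (adjusted p = 0.707). It was 0.34 for BNIP3 (adjusted p = 0.702), 0.31 for NDRG1 (0.76) and -0.58 for VEGFA (0.733), the last resting on the library named above: it ranged from -0.77 to -0.23 over fits that left out 1 library. The calls of the alpha subunits at 2 weeks therefore were not shown to differ from their changes at 48 hours.

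The 2-week and 48-hour libraries were also compared within each treatment. The labels give only the length of treatment, so time in culture and length of exposure cannot be told apart. In DMSO no member was called at 2 weeks against 48 hours (0.656% of all genes were higher and 0.112% lower, 82 and 14 as deposited and 32 and 14 after common sum scaling), while 1601 genes had an unadjusted p under 0.05. Still, 6 of 9 members (HIF1A, EPAS1, CA9, VEGFA, NDRG1 and KDM3A) had all 2-week libraries above both 48-hour libraries, against 28.8% of all genes, and none had them below, against 7.88%. CA9 was separated only by 1.5104 against 1.5097 FPKM, with wide bounds, and KDM3A by 10.9 against 10.7 FPKM. Summed FPKM was higher in each DMSO library at 2 weeks (363985 to 401961) than at 48 hours (350424 and 361088). This count of separated members was not repeated after scaling. The change of HIF1A was 0.65 (SE 0.15, 95% interval 0.33 to 0.97, adjusted p = 0.0679), with 108, 108 and 94.8 FPKM at 2 weeks against 59.4 and 72.4 FPKM at 48 hours. Both 48-hour libraries were below all 3 later ones, and the change was called without CSC 48 hours replicate 3 (adjusted p = 0.0208), which enters through the shared spread. EPAS1 changed by 0.26 (adjusted p = 0.435) and CA9 by 0.60 (adjusted p = 0.45) in DMSO.

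In CSC, NDRG1 was the 1 member of 9 called, higher at 2 weeks, where 12.3% of all genes were called higher and 1.38% lower. NDRG1 and BNIP3, 2 of 9, had all 2-week libraries above all 48-hour libraries, near the 28.4% of all genes that did, and none had them below, against 4.47%. Summed FPKM in CSC was 387870 to 484209 at 2 weeks and 338622 to 353744 at 48 hours. This count too was not repeated after scaling. NDRG1 had 16.7, 13.4 and 13.7 FPKM at 2 weeks and 10.2, 6.90 and 9.26 FPKM at 48 hours, without overlap. The change was 0.71 (SE 0.14, adjusted p = 0.0166), on a background median of 0.19 over all genes. After scaling to a common sum, which moved that median to -0.09, it was 0.42 with an adjusted p of 0.0646, and without CSC 2 weeks replicate 1 it was 0.61 (adjusted p = 0.0614). HIF1A (0.31, adjusted p = 0.119) and BNIP3 (0.31, adjusted p = 0.0714) were not called, nor was EPAS1 (-0.08, adjusted p = 0.648), whose CSC levels at both times overlapped. All-gene calls in this comparison, 1536 higher and 172 lower as deposited, were 85 higher and 455 lower after common sum scaling.

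By mean level over the 11 libraries, the order was HIF1A (71.9 FPKM), EPAS1 (28.8), ADM (23.9), BNIP3 (19.3), VEGFA (11.8), NDRG1 (10.7), KDM3A (10.2), EGLN3 (1.89), CA9 (1.19) and ANKRD37 (0.307). EPAS1, ADM and BNIP3 overlapped in range, as did VEGFA, NDRG1 and KDM3A, and EGLN3 and CA9. HIF1A stood above every other member in every library. The ratio of HIF1A to EPAS1 was 3.04 ± 0.39 in CSC and 2.60 ± 0.13 in DMSO at 2 weeks (SD, n = 3 each), and 2.31 ± 0.27 in CSC (n = 3) and 2.01 ± 0.52 in DMSO (n = 2) at 48 hours; single libraries overlapped between CSC and DMSO at both times.

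Across the 11 libraries the alpha subunits correlated more with some targets than with others. HIF1A had a Pearson r of 0.89 with KDM3A, 0.86 with CA9, 0.78 with EPAS1 and 0.66 with EGLN3. Its r was 0.24 with VEGFA, 0.23 with NDRG1, 0.14 with ADM and -0.12 with BNIP3. EPAS1 had 0.81 with KDM3A and 0.70 with CA9. With the other targets tested it had 0.30 (ADM), 0.28 (EGLN3), 0.09 (VEGFA), -0.31 (NDRG1) and -0.32 (BNIP3). VEGFA and ADM had 0.68 with each other, both being highest in CSC 48 hours replicate 3. These values describe libraries that share groups and exposures and carry no test. Among genes with a mean of at least 5 FPKM, those most like HIF1A over the 11 libraries were HGD (r = 0.98), TNS4 and RNF145 (both 0.966). Those most like EPAS1 were ETS2 (0.974) and CTIF (0.966), and for CA9 they were TSPAN13 (0.956), CLDN2 (0.943) and TMEM2 (0.934). VEGFA was most like GADD45B and TNFRSF10B (both 0.951) and CTGF (0.949), and NDRG1 most like FDFT1 (0.97).

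**Figure D3:**
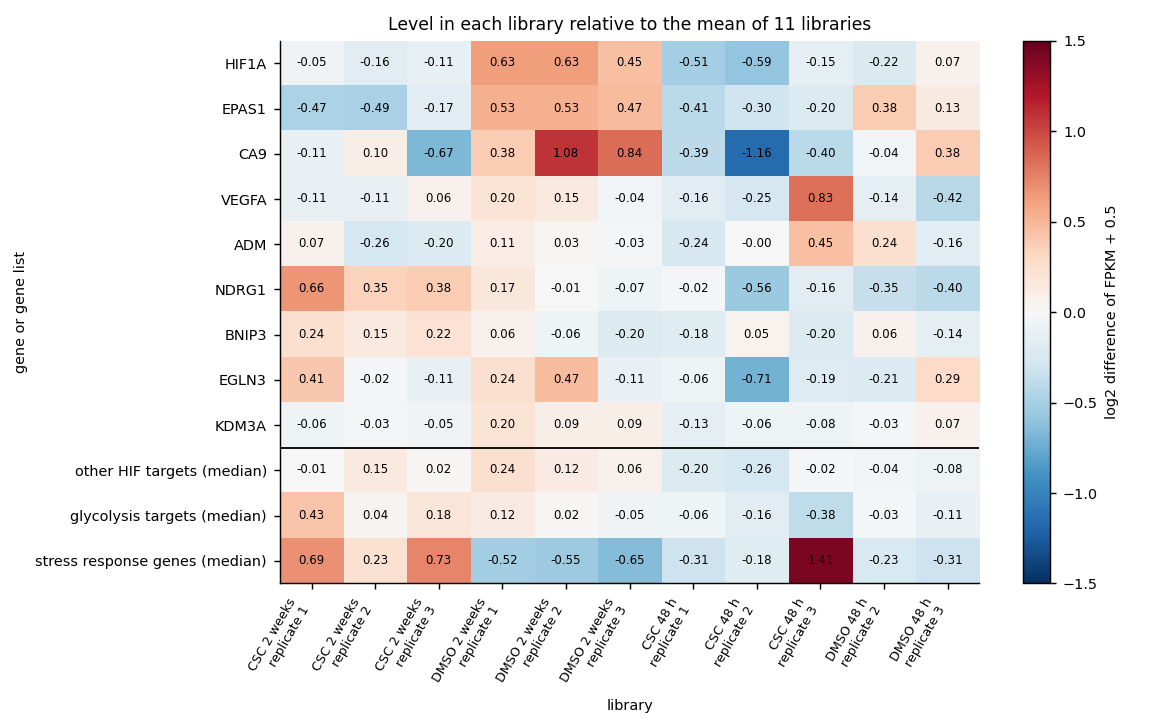
Log2 level of the 9 tested members in each library relative to the mean of the 11 libraries, above the medians of 36 other HIF targets, 12 glycolysis targets and 10 integrated stress response genes. HIF1A, EPAS1 and CA9 have their highest group means in DMSO at 2 weeks, and VEGFA (0.83) is highest in CSC 48 hours replicate 3, where the stress response median is 1.41.

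Few other genes of the oxygen pathway were called between CSC and DMSO. Of 6 further subunits and partners listed, 3 were expressed enough to test. ARNT, the shared beta subunit, averaged 7.83 ± 0.682 FPKM in CSC and 7.11 ± 0.363 FPKM in DMSO at 2 weeks (SD, n = 3 each; change 0.13, adjusted p = 0.465, and -0.01 after common sum scaling), with overlap. SIM2, a related factor that also pairs with ARNT, had 13.5, 12 and 13.1 FPKM in CSC and 10.1, 8.83 and 8.78 FPKM in DMSO. It was called higher at 2 weeks, where 3.01% of all genes were (0.46, adjusted p = 0.044), but in only 3 of 11 fits that left out 1 library. The call was also lost after median of ratios (adjusted p = 0.0655), common sum (0.125) and quantile (0.0727) scaling. HIF3A was at most 0.0245 FPKM in all libraries.

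None of the 12 oxygen-sensing genes tested, among them the EGLN hydroxylases and VHL, was called in CSC against DMSO at either time. Over all genes, 2.40% were lower and 3.01% higher at 2 weeks, and 0.184% lower and 0.104% higher at 48 hours. The median changes of the 12 oxygen-sensing genes were 0.20 at 2 weeks and 0.10 at 48 hours. EGLN1, the main hydroxylase of the alpha subunits in most cells, averaged 16.5 ± 2.66 FPKM in CSC and 18.5 ± 1.09 FPKM in DMSO at 2 weeks (SD, n = 3 each). VHL had a change of 0.37 (adjusted p = 0.104) at 2 weeks, which was called without CSC 2 weeks replicate 2 (0.0136). Of 9 coactivators and feedback regulators, GNB2L1, known as RACK1, which promotes HIF-1 alpha breakdown, was called higher at 2 weeks (0.49, adjusted p = 0.0445), in 2 of 11 fits that left out 1 library. The GNB2L1 call was also lost with quantile normalization (0.17, adjusted p = 0.13), with no filter (0.0965) and with only the libraries compared (0.0752). It held after median of ratios and common sum scaling. CITED2, which competes with the alpha subunits for coactivators and is itself a target, changed by -0.57 at 48 hours (adjusted p = 0.317) and 0.28 at 2 weeks (adjusted p = 0.317).

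Among 36 further HIF targets tested of 44 listed, 4 were higher and 4 lower in CSC at 2 weeks, where 3.01% of all genes were higher and 2.40% lower. None was called at 48 hours, where 0.104% of all genes were higher and 0.184% lower. Their median change at 2 weeks was -0.11, against 0.09 over all genes. With 3 other scalings (median of ratios, common sum and quantile) 1 gene, HILPDA, was called higher, and 6, 5 and 4 genes were called lower. Lower genes included STC1, a secreted glycoprotein of calcium and phosphate balance, PLOD2, a lysyl hydroxylase of collagen, and SLC2A3, a glucose transporter. STC1 averaged 1.43 ± 0.259 FPKM in CSC and 4.15 ± 0.666 FPKM in DMSO (SD, n = 3 each; change -1.26, SE 0.18, adjusted p = 0.0016), and PLOD2 averaged 64.7 ± 9.04 FPKM in CSC and 123 ± 5.99 FPKM in DMSO (change -0.93, SE 0.13, adjusted p = 0.00164). Both calls held in all 11 fits that left out 1 library, while SLC2A3 (-1.02, adjusted p = 0.0323) was called in 6 of 11.

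The higher targets were HILPDA, a lipid droplet protein, STC2, the paralogue of STC1, ZNF395, a zinc finger protein, and NDUFA4L2, a mitochondrial protein related to a respiratory chain subunit. HILPDA had 30.7, 23.0 and 23.8 FPKM in CSC at 2 weeks, against 10.5, 10.7 and 9.64 FPKM in DMSO. The groups were far apart, and the change of 1.28 (SE 0.25, adjusted p = 0.0121) was called in 9 of 11 such fits, the exceptions being without DMSO 2 weeks replicate 3 (0.0575) and CSC 2 weeks replicate 1 (0.0584); with no filter its adjusted p was 0.0515. STC2 (1.77, adjusted p = 0.0416) was called in 4 of 11, NDUFA4L2 (1.03, adjusted p = 0.0487) in 5 of 11 and ZNF395 (0.55, adjusted p = 0.0465) in 3 of 11. STC2 was at 42.0 FPKM in CSC 48 hours replicate 3, beside 7.27 and 10.1 FPKM in the other CSC libraries at that time and 5.38 and 3.80 FPKM in DMSO.

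**Figure D4:**
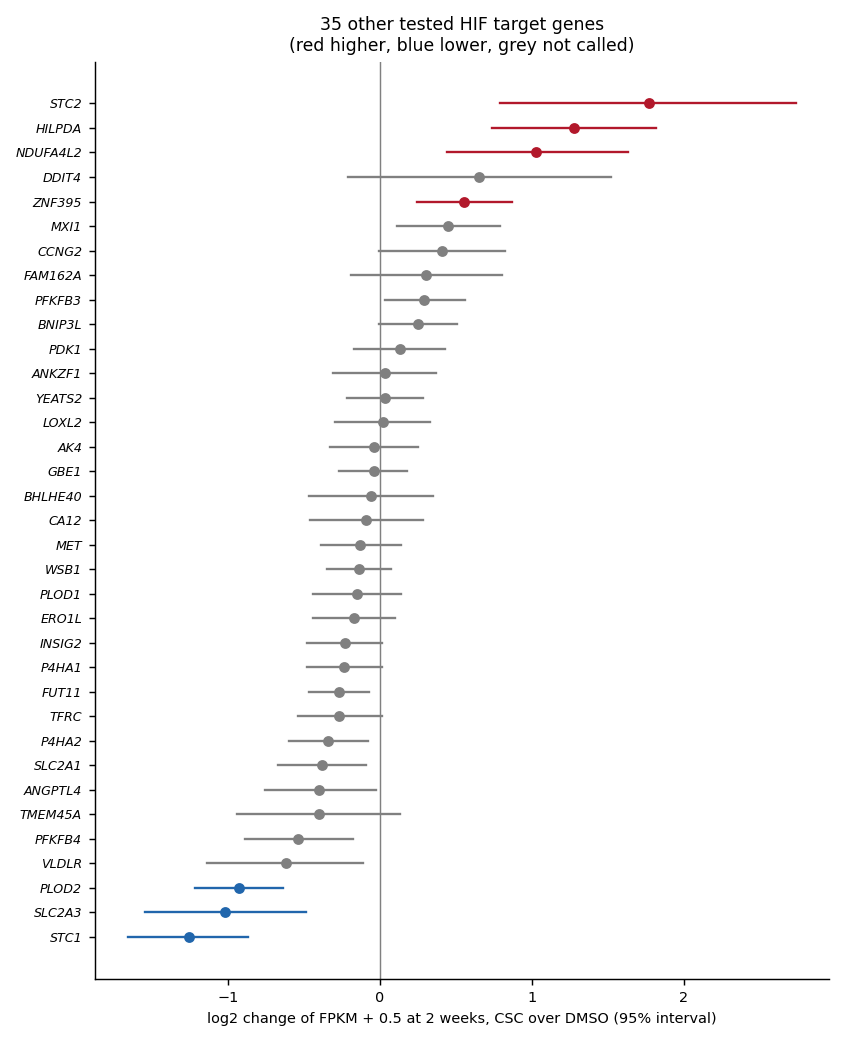
Change of log2(FPKM + 0.5) at 2 weeks, CSC over DMSO, with its 95% interval for 35 further HIF targets, ordered by size; red marks genes called higher, blue genes called lower and grey genes not called. The called genes shown run from STC2 at 1.77 to STC1 at -1.26.

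The partners of VEGFA and ADM were measured beside them. VEGFC, the growth factor of lymphatic vessels, averaged 3.74 ± 0.112 FPKM in CSC and 7.43 ± 0.531 FPKM in DMSO at 2 weeks (SD, n = 3 each), and was the 1 of 5 tested VEGF family genes called, beside 2.40% of all genes lower (-0.90, adjusted p = 0.000443, called in all 11 fits that left out 1 library). KDR, the main VEGFA receptor, was listed at 0 in every library. Of 7 genes of the adrenomedullin system only CXCR7 (now ACKR3), a scavenging receptor that binds adrenomedullin and CXCL12, was expressed enough to test. It had 2.06, 2.42 and 2.16 FPKM in CSC at 2 weeks, against 12.1, 10.7 and 7.92 FPKM in DMSO. This change of -1.96 (SE 0.18, adjusted p = 0.000102) was called in all 11 such fits.

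Of 13 genes known to depend more on HIF-2, 9 were tested. At 2 weeks 1 was called higher and 1 lower in CSC, where 3.01% of all genes were higher and 2.40% lower. At 48 hours 1 was called higher, where 0.104% of all genes were. TGFA, an EGF receptor ligand, was the higher gene at both times. TGFA had 3.08, 3.60 and 3.57 FPKM in CSC at 2 weeks, against 2.04, 2.02 and 1.93 FPKM in DMSO (change 0.65, SE 0.11, adjusted p = 0.00497, called in all 11 fits that left out 1 library). At 48 hours it had 5.70, 6.28 and 5.56 FPKM in CSC, against 2.59 and 2.83 FPKM in DMSO. That change, 0.98 (SE 0.12, adjusted p = 0.00333), was not called without DMSO 48 hours replicate 2 (0.0527) or in a fit of only those libraries (0.151). The median change of the 9 genes was 0.02 at 2 weeks and -0.03 at 48 hours.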

How the data were processed

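Total RNA of A549 cells was depleted of ribosomal RNA (Ribo-Zero Gold), sequenced on a HiSeq2000 and aligned to hg19 with TopHat2 2.0.9 through BaseSpace, per the labels' protocols; the submitters' processing notes also list CASAVA 1.7.1a5. Not given in the sources used here were the quantifier, annotation and strand setting. The authors deposited 1 FPKM per locus with bounds; FPKM were summed over loci per symbol (548 of 23609 symbols had several), and 1 gene with failed estimates was left out. FPKM are not counts, so reads per library are unknown.

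All 11 libraries entered 1 fit of 4 groups with limma 3.58.1 in R 4.3.3 (eBayes with trend) on log2(FPKM + 0.5), over 12506 genes with at least 1 FPKM in 2 or more libraries, with Benjamini-Hochberg adjustment. The procedure was tested on simulated data. The members and gene lists were chosen with earlier results of these data known. Other genes named are the called genes of each list and up to 3 with the smallest p, and the 3 genes most correlated with a member; EGLN1 and HIF1A-AS2, and genes listed near 0, were picked after their values were seen. Alternatives covered pseudocount, filter, scaling, eBayes options, library weights, the replicate block, a fit of only the libraries compared, symbols at several loci and each library left out. Promoters came from RefSeq (GRCh38.p14). A few genes that these rules named are not reported here.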

Additional observations from a re-analysis of the deposited data

How the results depend on the processing

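The fall of EPAS1 at 2 weeks was called under every alternative run, and that of HIF1A under all but 3 that left out 1 library. Members called changed most with library weights, an estimate that stopped before convergence: 6 at 2 weeks, 1 at 48 hours (EPAS1), 1 over time in DMSO and 3 over time in CSC. Fitting only the libraries compared called 4 at 2 weeks, 1 over time in DMSO and 0 over time in CSC, and common sum scaling called 0 over time in CSC. Leaving out 1 library gave 1 to 4 members at 2 weeks, 0 to 1 over time in DMSO and 0 to 2 over time in CSC. The cause was not tested.

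Small changes that turned direction were ARNT at 2 weeks (-0.01, common sum), ADM at 48 hours (-0.17 with library weights and without DMSO replicate 3, -0.16 without CSC replicate 3), EPAS1 over time in CSC (0.16, library weights), BNIP3 at 48 hours (0.03 without DMSO replicate 2) and EGLN3 at 2 weeks (0.03 without DMSO replicate 2). Over all fits that left out 1 library these ran from -0.17 to 0.23 for ADM, -0.17 to 0.03 for BNIP3 and -0.27 to 0.03 for EGLN3. Of the alternative values for single genes, 1468 kept direction and side of the threshold, 53 gained a call and 88 lost one. Over all genes, 676 were called at 2 weeks (230 to 5580 over the alternatives), 36 at 48 hours (3 to 208), 5 for the difference (0 to 84), 96 over time in DMSO (26 to 711) and 1708 over time in CSC (78 to 5388). With the replicate block, 3 members were called at 2 weeks. Same-numbered libraries of different groups correlated at -0.20 to 0.31 (median 0.05), and different-numbered ones at -0.22 to 0.28 (median -0.04). Of 11 libraries, 7 correlated best with one of their own number. These values do not settle whether the numbers pair, and the main fit used no block. The low levels of CA9, EGLN3 and ANKRD37 and the 2 DMSO libraries at 48 hours limit precision.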

Other observations

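Some targets were called between 48 hours and 2 weeks of the same treatment. ANGPTL4, a secreted inhibitor of lipoprotein lipase and a HIF and PPAR target, averaged 29.2 ± 2.26 FPKM at 2 weeks (SD, n = 3) and 8.13 ± 2.25 FPKM at 48 hours (n = 2) in DMSO, a change of 1.81 (adjusted p = 0.000597). In CSC it averaged 22.1 ± 1.23 FPKM at 2 weeks and 8.39 ± 2.04 FPKM at 48 hours (n = 3 each; change 1.37, adjusted p = 0.00173). Of 12 glycolysis targets tested, none was called in CSC against DMSO at either time. Of all genes, 3.01% were higher and 2.40% lower at 2 weeks, and 0.104% and 0.184% at 48 hours. In CSC, 6 of the 12 (ALDOA, GAPDH, GPI, HK1, PGK1 and TPI1) were higher at 2 weeks than at 48 hours. In that comparison 12.3% of all genes were higher and the all-gene median was 0.19. None of the 12 was called there under the 3 other scalings. The list median over time was 0.41 in CSC and 0.09 in DMSO.

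Of 10 integrated stress response genes, which answer amino acid shortage and misfolded protein, 6 were higher in CSC at 2 weeks, where 3.01% of all genes were, and 5 or 6 were under each other scaling. Examples were PHGDH of serine synthesis (1.42, adjusted p = 0.00467), PSAT1 of the same pathway (1.09, adjusted p = 0.00679) and CHAC1, which degrades glutathione (2.25, adjusted p = 0.0316). Of 12 Jumonji histone demethylases, relatives of KDM3A, none was called in either CSC comparison. Over all genes, 3.01% were higher and 2.40% lower at 2 weeks, and 0.104% and 0.184% at 48 hours. KDM4A had the smallest p of the 12 (0.52 at 2 weeks, adjusted p = 0.0798).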
